A study of Mus musculus with 6 samples.

Results

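The G1 cyclins, kinases and CDK inhibitors are 10 genes: the D cyclins Ccnd1, Ccnd2 and Ccnd3, the E cyclins Ccne1 and Ccne2, the cyclin-dependent kinases Cdk2, Cdk4 and Cdk6, and the CIP/KIP inhibitors Cdkn1a (p21) and Cdkn1b (p27). They were taken by symbol from a count table of 24421 genes, and all 10 were found there. RNA came from Neuro2a, a mouse neuroblastoma line that the labels describe as wild type in genotype. The control group (shCtrl, 3 libraries) received ADV-shCtrl, an adenovirus with a control short hairpin RNA, and the knockdown group (shFam172a, 3 libraries) received ADV-shFam172a, an adenovirus with a hairpin against Fam172a. Every well thus carried a virus with a hairpin, all cells were taken after 48 h, and no uninfected cells were analysed here. Nothing in the labels says that the 3 libraries of a group came from separate cultures or infections, so the p-values reflect the spread between these libraries alone, and that spread may be technical.

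In G1, D cyclins bind CDK4 or CDK6 and begin the phosphorylation of the retinoblastoma family, which holds E2F transcription factors in check. Cyclin E with CDK2 continues that phosphorylation and opens S phase. p21 and p27 bind these complexes, block cyclin E-CDK2 and can also help to assemble cyclin D-CDK4. p21 is a classic transcriptional target of p53, p27 is controlled largely through protein stability, and MYCN and MYC, which bind E-boxes, are known for driving proliferation in neuroblastoma. Counts of mRNA do not measure these proteins, their phosphorylation or kinase activity.

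Start regions are shown for 4 of the members whose counts differed between the groups, with a motif picked for each gene to place beside the values. RefSeq start windows (GRCm38.p6) matched 7 of the 10 symbols, and Ccnd1, Ccnd2 and Ccne2 are not shown. Motifs were searched on both strands in the 250 bases before each start, and each sequence, written 5′ to 3′ along the gene's strand, stops before the first annotated exon. Cdkn1a and Ccnd3 have 2 windows each, and the upstream one is shown. Of 32851 such windows in the table, 25 (0.0761%) hold the p53 element, searched as 2 adjacent copies of the p53 decamer with at most 1 mismatch and added after the sequences were seen. The E-box CACGTG is in 6.02% of windows, the GC box GGGCGG in 32.7%, and the forkhead motif GTAAACA in 3.17%. The p53 element is in capitals in Cdkn1a (chr17:29090729-29090975, plus strand), the E-boxes in Cdk4 (chr10:127063285-127063533, plus strand), the GC boxes in Ccne1 (chr7:38107535-38107740, minus strand) and the forkhead motif, read on the opposite strand, in Ccnd3 (chr17:47504801-47505050, plus strand).
Cdkn1a: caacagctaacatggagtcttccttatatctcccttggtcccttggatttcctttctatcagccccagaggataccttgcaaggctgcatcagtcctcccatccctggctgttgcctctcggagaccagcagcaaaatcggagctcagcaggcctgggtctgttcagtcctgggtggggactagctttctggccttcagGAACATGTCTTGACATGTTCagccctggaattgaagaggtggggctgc
Cdk4: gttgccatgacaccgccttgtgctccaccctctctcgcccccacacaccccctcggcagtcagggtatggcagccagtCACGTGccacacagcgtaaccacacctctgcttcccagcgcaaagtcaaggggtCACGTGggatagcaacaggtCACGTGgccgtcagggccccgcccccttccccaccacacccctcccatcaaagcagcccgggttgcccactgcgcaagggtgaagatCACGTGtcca
Ccne1: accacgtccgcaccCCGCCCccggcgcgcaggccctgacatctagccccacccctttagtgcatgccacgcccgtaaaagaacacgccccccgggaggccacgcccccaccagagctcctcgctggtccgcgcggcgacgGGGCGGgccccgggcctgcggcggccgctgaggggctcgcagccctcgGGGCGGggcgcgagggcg
Ccnd3: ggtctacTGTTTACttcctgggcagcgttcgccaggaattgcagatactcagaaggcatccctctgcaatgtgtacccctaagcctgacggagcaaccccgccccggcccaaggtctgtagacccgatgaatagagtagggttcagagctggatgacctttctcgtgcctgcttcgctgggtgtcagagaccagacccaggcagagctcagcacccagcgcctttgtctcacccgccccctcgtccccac
The Cdkn1a element runs from -51 to -32 relative to the upstream RefSeq start. The downstream Cdkn1a window, which ends at 29093768, holds 0 such elements. The downstream Ccnd3 window, which ends at 47593466, holds 0 forkhead motifs. Cdk4 has 4 E-boxes, the nearest starting at -11, and 7 of all windows (0.0213%) have at least 4. Ccne1 has 4 GC boxes in its whole window, 3 of them in the bases shown. The E2F letters TTTNNCGC are in 4.28% of all windows and, among the members, in those of Cdk2 (from -140) and Cdk6 (from -198). A match is a description of letters, and binding was not measured.

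The library totals were 11250312 to 12820531 gene counts in shCtrl and 21690467 to 23409319 in shFam172a, so depth moved with the group. Fam172a itself was at 18.6, 19.3 and 19.5 CPM in the shCtrl libraries and at 9.22, 8.27 and 9.21 CPM in the shFam172a libraries, a mean of 46.5% of control. CPM here is the gene count scaled to library size by TMM, and every log2 fold change is shFam172a over shCtrl. With edgeR's quasi-likelihood test and Benjamini-Hochberg adjustment (the edgeR adjusted p), 4627 of 12820 tested genes passed 0.05, which is 36.1%. Sympathoadrenal markers summed to 1002 to 1013 CPM in shCtrl and 1148 to 1156 in shFam172a, with 5 of 9 tested higher. Of 4 neuron markers 1 was higher and 2 lower. Among markers of other cells, macrophage genes summed to at most 1.16 CPM with Ptprc and Itgam at 0, fibroblast genes to at most 6.85 CPM, and glial genes to at most 26.5 CPM with Aqp4 at 0. Endothelial and epithelial genes summed to 14.2 to 14.7 CPM in shCtrl and 15.1 to 16.4 in shFam172a. Of these 4 lists, macrophage Cd68 was the only gene called, from 0.514 ± 0.249 to 1.02 ± 0.107 CPM (SD, n = 3), a call lost in 6 of 15 alternatives, and the part of these markers in the results was not tested. In bulk RNA a change in the share of cells in a state, here a cell cycle phase, and a change of RNA per cell cannot be told apart.

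The G1 genes moved in both directions in shFam172a: both inhibitors, Ccnd3 and Cdk4 rose, Cdk2 and Ccne1 fell, and Ccnd1 and Ccne2 did not pass the test. Of the 10 members 8 had enough counts to be tested, in both groups, and 6 of those 8 (75%) passed, against 36.1% of all tested genes. By direction, 4 of the 8 were higher, where 17.5% of all genes were, and 2 were lower, where 18.6% were. The 6 members are also those whose groups did not overlap in CPM, as was true of 46.0% of all tested genes. Tested with edgeR against a 1.2-fold change, 0 of 8 members passed after adjustment and 1, Cdkn1a, at an unadjusted p under 0.05, where 3.46% of all genes (443) passed after adjustment and 9.44% (1210) at an unadjusted p under 0.05. The median log2 fold change of the 8 was 0.03, and that of all tested genes was -0.000302. Thinning every library to the smallest depth left the same 4 higher and 2 lower. Replicate 3 of shFam172a had 4.46% of its read pairs set aside for low alignment quality against 6.65% and 7.12% in its group, and without it 3 members were higher and 2 lower. Without shCtrl replicate 1, 2 were higher (Cdkn1a and Ccnd3) and 2 lower.

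**Figure D1:**
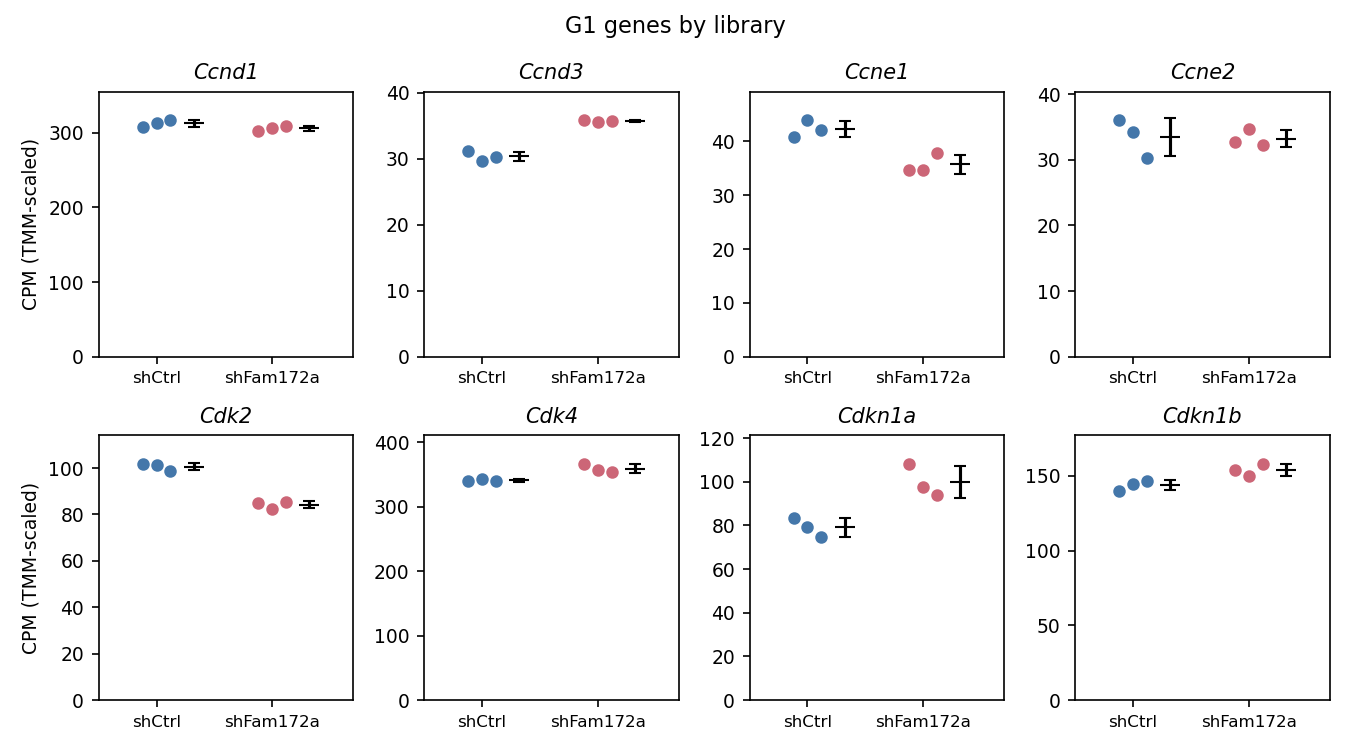
CPM (TMM-scaled, linear axes from 0) of the 8 tested G1 genes in each library; points are libraries in replicate order, and the bar beside them is the mean ± SD (n = 3). The groups separate for Ccnd3, Ccne1, Cdk2, Cdk4, Cdkn1a and Cdkn1b and overlap for Ccnd1 and Ccne2.

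Among the D cyclins, which sense growth signals, Ccnd3 alone was called, and Ccnd1, the main D cyclin of these cells by level, did not pass the test. Ccnd1 (chromosome 7, 144929931 to 144939925, minus strand, GRCm38) was at 308, 313 and 317 CPM in shCtrl and at 302, 307 and 309 CPM in shFam172a. The groups overlapped, since the highest shFam172a library lay above the lowest shCtrl library, while the other two lay under all 3 shCtrl libraries. The log2 fold change was -0.03 ± 0.03 (SE, edgeR adjusted p = 0.437), and its 95% interval of -0.09 to 0.03 corresponds to 0.941 to 1.02 times the control level. Reads from Oraov1, which shares 1100 bases or 23.4% of the Ccnd1 exon sequence on the opposite strand, rose from 13.5 to 18.2 CPM (log2 fold change 0.43). The strand setting of the counting is not given in the sources used here, so reads of the shared stretch cannot be told apart.

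Ccnd3 (chromosome 17, 47505051 to 47599691, plus strand) was at 31.1, 29.7 and 30.3 CPM in shCtrl and at 35.8, 35.5 and 35.7 CPM in shFam172a. Every shFam172a library lay above every shCtrl library, and the mean went from 30.3 ± 0.724 to 35.7 ± 0.155 CPM (SD, n = 3). The log2 fold change was 0.23 ± 0.06 (SE, edgeR adjusted p = 0.00197), a 1.18-fold difference with a 95% interval of 1.08 to 1.28. The 3 shFam172a values lay close together, with a coefficient of variation of 0.435% where Poisson counting gives 3.54% on average. Bysl, a ribosome biogenesis gene that shares 4.11% of the Ccnd3 exon sequence on the opposite strand, moved the other way, from 66.7 to 53.6 CPM (-0.32).

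Ccnd2, the D cyclin prominent in neural progenitors, and Cdk6, the partner kinase of D cyclins beside CDK4, were hardly counted. Ccnd2 had 0, 0 and 1 counts in shCtrl and 1, 7 and 1 in shFam172a, and replicate 2 of shFam172a held 7 of the 10 counts. Cdk6 had 0, 0 and 1 counts in shCtrl and 1, 1 and 0 in shFam172a. For both genes, a count of 0 allows up to 0.258 CPM in shCtrl replicate 1 and 0.234 CPM in shCtrl replicate 2. For Cdk6 it allows up to 0.135 CPM in shFam172a replicate 3 (3 counts each, counting error only). Both genes stayed out of the test, and no fold is given. Per library, Ccnd2 reached at most 0.300 CPM and Cdk6 at most 0.0885 CPM.

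Of the E cyclins, which carry CDK2 activity into S phase, Ccne1 fell and Ccne2 did not pass the test. Ccne1 (chromosome 7, 38097984 to 38107534, minus strand) was at 40.9, 43.9 and 42.1 CPM in shCtrl and at 34.7, 34.8 and 37.8 CPM in shFam172a. All shFam172a libraries lay below all shCtrl libraries. The mean went from 42.3 ± 1.52 to 35.8 ± 1.79 CPM (SD, n = 3), a log2 fold change of -0.24 ± 0.06 (SE, edgeR adjusted p = 0.000797) and 0.844 times the control level, with a 95% interval of 0.779 to 0.915. No annotated gene shares exon sequence with Ccne1.

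Ccne2 (chromosome 4, 11191351 to 11204779, plus strand) was at 36.0, 34.2 and 30.2 CPM in shCtrl and at 32.6, 34.7 and 32.3 CPM in shFam172a. The shFam172a values lay inside the range of the shCtrl values, which spread by 8.86% (coefficient of variation) where counting gives 5.00%. The log2 fold change was -0.01 ± 0.06 (SE, edgeR adjusted p = 0.914), and its 95% interval of -0.14 to 0.12 does not show that the level was the same. Its sign turned with the processing, from -0.07 to 0.09 over 17 alternatives, and no alternative called it. Ints8 shares 17.4% of the Ccne2 exon sequence on the opposite strand. It stood at 61.5 CPM in controls and at 62.4 CPM with the knockdown (0.02). Whether Ccne1 and Ccne2 differed in their response was read from their ratio within a library, which overlapped between the groups (1.49, 1.69 and 1.83 in shCtrl, 1.40, 1.31 and 1.54 in shFam172a, exact two-sided permutation p = 0.20).

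The 2 measured kinases moved in opposite directions. Cdk2 (chromosome 10, 128697939 to 128705031, minus strand), the partner of cyclins E and A, was at 102, 101 and 98.8 CPM in shCtrl and at 85.1, 82.4 and 85.4 CPM in shFam172a. The groups did not overlap, and the gap between them was wider than the range within either group. The mean went from 101 ± 1.57 to 84.3 ± 1.66 CPM (SD, n = 3), a log2 fold change of -0.26 ± 0.04 (SE, edgeR adjusted p = 2.13e-06). That is 0.838 times the control level, with a 95% interval of 0.793 to 0.885. It shares 34 bases with Pmel, a pigment cell gene at 0.341 and 0.552 CPM.

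Cdk4 (chromosome 10, 127063534 to 127067920, plus strand), the D cyclin kinase and the most abundant member per length, was at 340, 344 and 340 CPM in shCtrl and at 367, 358 and 353 CPM in shFam172a. All shFam172a libraries lay above all shCtrl libraries, with means of 341 ± 2.26 and 359 ± 6.82 CPM (SD, n = 3). The log2 fold change was 0.07 ± 0.03 (SE, edgeR adjusted p = 0.0362), a 1.05-fold difference with a 95% interval of 0.02 to 0.13 on the log2 scale. The call was lost in 6 of 17 alternatives, among them the omission of any single library other than shFam172a replicate 3, with edgeR adjusted p from 0.00227 to 0.147 over all 17. Tspan31 shares 19.7% of the Cdk4 exon sequence on the opposite strand and stood at 141 CPM in controls and at 142 CPM with the knockdown (0.01).

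Both CIP/KIP inhibitors rose, Cdkn1a by the largest log2 fold change of the 8 tested members. Cdkn1a (chromosome 17, 29090976 to 29100727, plus strand) was at 83.5, 79.3 and 74.7 CPM in shCtrl and at 108, 97.8 and 93.8 CPM in shFam172a. The lowest shFam172a library lay above the highest shCtrl library. The mean went from 79.1 ± 4.37 to 99.9 ± 7.46 CPM (SD, n = 3), a log2 fold change of 0.34 ± 0.05 (SE, edgeR adjusted p = 7.94e-07) and a 1.26-fold difference with a 95% interval of 1.18 to 1.35. Against a 1.2-fold change the edgeR adjusted p was 0.317. On the opposite strand, AC167363.2 shares 273 bases or 7.68% of the Cdkn1a exon sequence, and its level was not analysed here. The Cdkn1a rise lay at the 91.2 percentile of all tested log2 fold changes. The shFam172a libraries spread by 7.47% (coefficient of variation) where counting gives 2.12%, the widest excess over counting among the tested members. Trp53, which encodes p53, fell from 94.3 ± 4.69 to 79.9 ± 2.77 CPM (-0.24 ± 0.04). A part of p53 in the Cdkn1a rise was not tested.

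Cdkn1b (chromosome 6, 134920401 to 134925513, plus strand) was at 140, 145 and 147 CPM in shCtrl and at 154, 150 and 158 CPM in shFam172a. The groups did not overlap, though the gap between them was narrower than the range within shCtrl. The mean went from 144 ± 3.36 to 154 ± 3.93 CPM (SD, n = 3), a log2 fold change of 0.10 ± 0.03 (SE, edgeR adjusted p = 0.0192) and a 1.07-fold difference with a 95% interval of 1.02 to 1.13. The call ended without shCtrl replicate 1 (0.08, edgeR adjusted p = 0.0900) and without shFam172a replicate 3 (0.08, edgeR adjusted p = 0.0774), and the edgeR adjusted p went down to 0.00252 over the 17 alternatives. Foxo3, a forkhead factor known to activate Cdkn1b, rose from 29.98 ± 1.69 to 45.7 ± 2.82 CPM (0.61 ± 0.06). Its relatives, named after their values were seen, did not rise with it. Foxo4 was called lower (-0.16 ± 0.06, edgeR adjusted p = 0.0439), and Foxo1 had at most 3 counts in any library. The Cdkn1b start window holds 0 forkhead motifs, and a part of Foxo3 in the Cdkn1b rise was not tested.

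**Figure D2:**
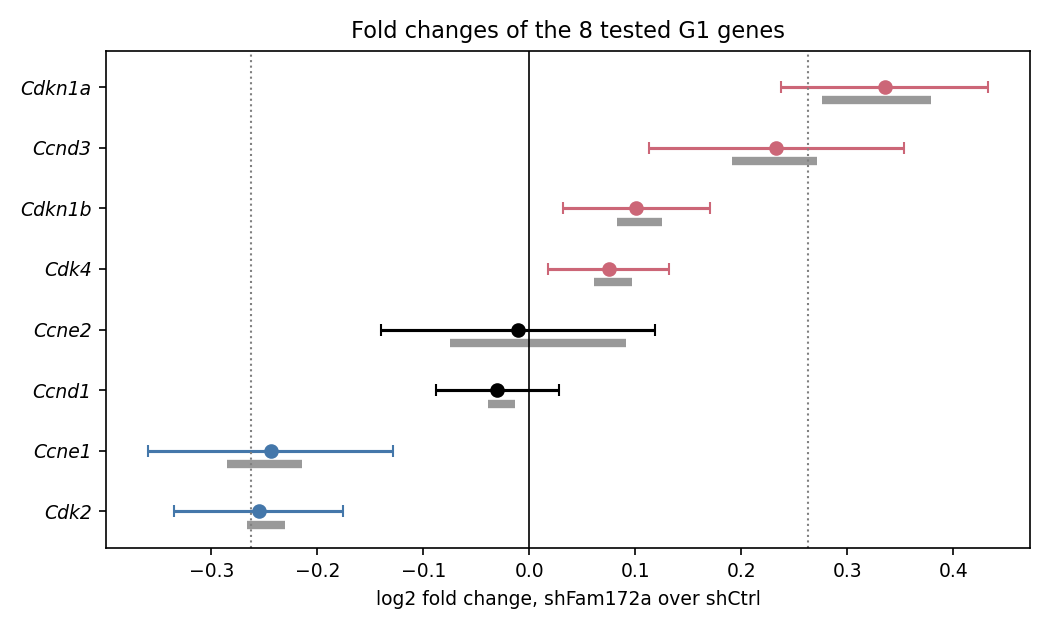
Log2 fold change (shFam172a over shCtrl) of the 8 tested G1 genes with its 95% interval; red was called higher, blue lower and black not called, the grey bar under each point spans 17 processing alternatives, and dotted lines mark a 1.2-fold change. Cdkn1a lies highest at 0.34 and Cdk2 lowest at -0.26, and every interval reaches inside the dotted lines.

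Compared per length of merged exons, the order of levels in shCtrl was Cdk4 (105 CPM per kb), Ccnd1 (66.4), Cdkn1b (31.6), Cdkn1a (22.3), Cdk2 (16.2), Ccne1 (15.9), Ccne2 (9.57) and Ccnd3 (3.46). Neighbours differed by more than their spread except Cdk2 and Ccne1, whose libraries overlapped (15.9 to 16.4 and 15.4 to 16.5 CPM per kb). In shFam172a the order was the same, with Cdk2 at 13.6 and Ccne1 at 13.4 CPM per kb again overlapping. Ccnd2 and Cdk6 were under 0.04 CPM per kb in every library. Some merged models are much longer than any one transcript: per length of the longest transcript, chosen as an alternative after the values were seen, Cdkn1a (38.1) passed Cdkn1b (31.6) in shCtrl and Cdk2 rose to 30.8, while Cdk4 (166) and Ccnd1 (83.5) stayed first and Ccnd3 (7.87) last of the 8.

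**Figure D3:**
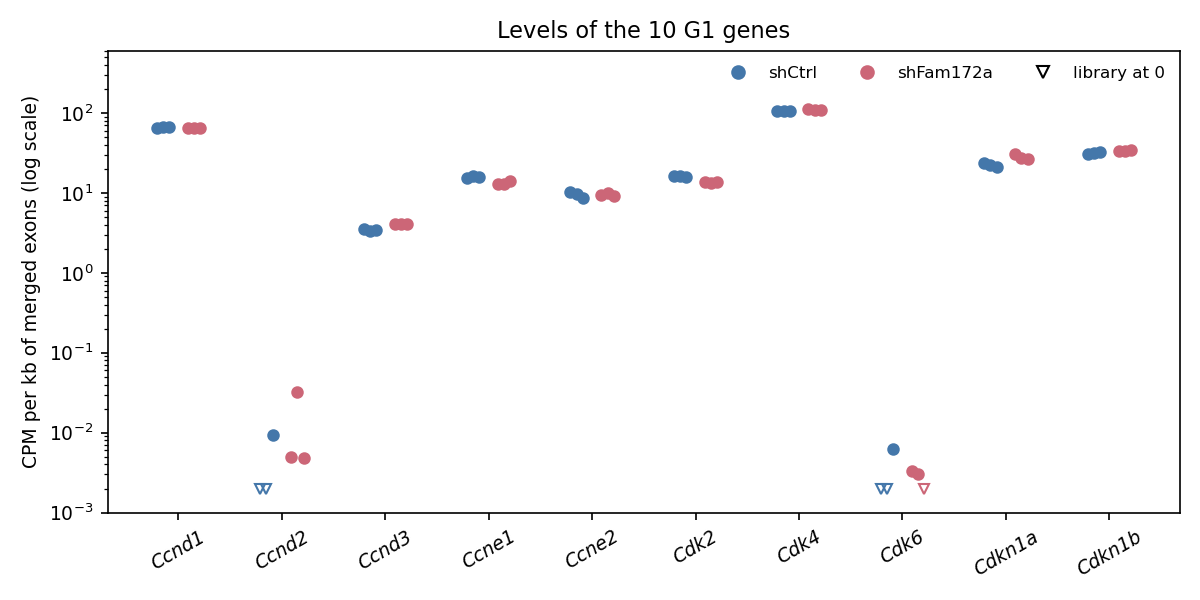
Level of all 10 G1 genes in each library, in CPM per kilobase of merged exons on a log axis; open triangles at the bottom mark libraries with 0 counts. Cdk4 and Ccnd1 lie highest, and Ccnd2 and Cdk6 lie far under the other 8.

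The balance between members was followed in 9 ratios and shares of CPM per kb, computed within each library and chosen after the values were seen. With 3 libraries against 3, the exact two-sided permutation test cannot go under p = 0.10, or 0.15 after adjustment over the 9, so none can pass. The ratio of Cdk4 to Cdk2 was 6.39, 6.51 and 6.58 in shCtrl and 8.25, 8.32 and 7.92 in shFam172a. Cdkn1a over Cdk2 was 1.44, 1.37 and 1.32 in shCtrl and 2.23, 2.08 and 1.92 in shFam172a, the widest relative difference of the 9, at 1.51-fold between the means. Both ratios separated the groups, as their members' opposite directions make them do. Cdkn1b over Cdk2 was 1.95 ± 0.0735 in shCtrl and 2.50 ± 0.0283 in shFam172a (SD, n = 3), without overlap.

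The other ratios and shares moved less. Ccnd1 over Ccnd3 was 18.5, 19.6 and 19.5 in shCtrl and 15.7, 16.1 and 16.1 in shFam172a, so that Ccnd1 made up 95.04% ± 0.158 and 94.1% ± 0.0721 of D cyclin CPM per kb (SD, n = 3). The ratio of Cdkn1a to Cdkn1b overlapped, at 0.764, 0.702 and 0.653 in shCtrl and 0.899, 0.834 and 0.760 in shFam172a. That ratio fell in replicate order in both groups, and each shFam172a library lay above the shCtrl library of the same number. The D cyclins summed to 2.74 ± 0.126 times the E cyclins in shCtrl and 3.01 ± 0.0403 times in shFam172a, with no overlap.

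Around the members, the other CDK inhibitors were mostly low or level. Of 5, 3 were tested and Cdkn2a alone was called, from 42.1 ± 1.99 to 51.6 ± 1.80 CPM (0.29 ± 0.05, edgeR adjusted p = 2.55e-05). Its symbol covers both p16 and ARF, which the counts do not separate. Cdkn2c was at 17.9 ± 1.09 and 17.2 ± 1.46 CPM and Cdkn2d at 40.7 ± 1.002 and 40.5 ± 3.15 CPM, neither called. Cdkn1c (p57) had 3, 8 and 6 counts in shCtrl and 12, 6 and 7 in shFam172a, and Cdkn2b 3, 1 and 2 against 13, 8 and 9, too few to be tested.

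Of the genes for CDK activation and its control, 5 of 9 tested fell, 1 rose and 3 were not called, and their median log2 fold change was -0.16. Cdk7, the catalytic subunit of the CDK-activating kinase, rose (0.13 ± 0.04). Its cyclin Ccnh fell (-0.18 ± 0.03), a call lost in 2 of 17 alternatives. The phosphatases Cdc25b (-0.19 ± 0.04) and Cdc25c (-0.27 ± 0.07), which remove inhibitory phosphates from CDKs, fell. The kinases that add them, Wee1 (-0.16 ± 0.05, lost in 1 of 17 alternatives) and Pkmyt1 (-0.21 ± 0.07, lost in 6), fell too, and were named after their values were seen. Genes for the turnover of G1 cyclins and inhibitors were mostly not called, with 1 of 19 higher, 3 lower and a median of 0.00118. The called ones were Gsk3b, a kinase that marks D cyclins for degradation (0.20 ± 0.03), the scaffold of a cyclin E ubiquitin ligase, Cul3 (-0.14 ± 0.03), and the p27 ubiquitin ligase parts Cks1b (-0.14 ± 0.04) and Skp2 (-0.12 ± 0.04). The Skp2 call was lost in 6 of 17 alternatives and that of Cks1b in 3.

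Of 18 pocket protein and E2F genes 9 fell, 2 rose and 7 were not called (median -0.14). Rbl2 (p130), the pocket protein of resting cells, rose from 31.8 ± 0.567 to 37.1 ± 2.05 CPM (0.22 ± 0.06), while Rbl1 (p107), itself an E2F target, fell from 87.9 ± 0.830 to 68.2 ± 3.25 CPM (-0.37 ± 0.04). Of the E2F genes, E2f1, an activator, was called higher (0.13 ± 0.04, lost in 3 of 17 alternatives) and E2f8, a repressor, lower (-0.49 ± 0.05). Named after their values were seen, E2f2, another activator (-0.15 ± 0.05), and the repressors E2f6 (-0.39 ± 0.06) and E2f7 (-0.14 ± 0.05) were also called lower, and the calls of E2f2 and E2f7 were each lost in 3 of 17 alternatives. Tfdp1, the shared partner of E2F proteins, fell from 366 ± 10.9 to 284 ± 6.28 CPM (-0.36 ± 0.03). Rbl2 shares 9.17% of its exon sequence with Aktip on the opposite strand.

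Downstream, 13 of 20 S-phase targets of E2F fell, 0 rose and 7 were not called (median -0.21), and all 20 had a log2 fold change under 0. Among the strongest calls were the ribonucleotide reductase subunit Rrm2, from 129 ± 0.872 to 81.1 ± 3.14 CPM (-0.67 ± 0.04), and the primase subunit Prim1 (-0.54 ± 0.04). Among later cyclins, kinases and the proliferation marker, all 6 tested genes of 7 fell, with a median of -0.25 (Ccna1, the seventh, had too few counts). Ccna2 stands in both of these lists. Ccna2, the S-phase cyclin that also binds CDK2, went from 228 ± 3.82 to 191 ± 7.43 CPM (-0.25 ± 0.03), Cdk1 from 317 ± 9.87 to 246 ± 8.95 (-0.37 ± 0.03), Ccnb1 from 520 ± 9.03 to 420 ± 10.4 (-0.31 ± 0.03) and Mki67 from 857 ± 11.8 to 723 ± 7.97 (-0.25 ± 0.03). These lists are counts beside the 18.6% of all genes that were lower, and a difference from other genes was not tested.

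Of 20 tested transcription factors that feed into G1 genes, 6 rose, 4 fell and 10 were not called (median -0.03). The AP-1 genes Jun (0.31 ± 0.05) and Fos (0.44 ± 0.11, at 7.98 and 10.9 CPM), known for driving Ccnd1, rose with Foxo3. Ccnd1 did not pass the test, and a part of AP-1 in its level was not tested. Foxm1, an activator of later cell cycle genes, fell (-0.24 ± 0.04), as did Klf4, an activator of Cdkn1a (-0.25 ± 0.10, lost in 8 of 17 alternatives). Of the E-box factors, named after their values were seen, Mycn was called higher (0.14 ± 0.05, edgeR adjusted p = 0.0389). The Mycn call was lost at least with DESeq2 and without shCtrl replicate 3. Myc was not called (-0.07 ± 0.04, edgeR adjusted p = 0.203). Among 25 tested other cyclins, kinases and CDK5 activators, 6 rose, 2 fell and 17 were not called (median 0.07). Ccng2, a cyclin of resting cells and a known FOXO target, rose from 54.4 ± 3.34 to 85.6 ± 7.05 CPM (0.65 ± 0.05), more than any of the 8 tested members. Ccng1, a p53 target, fell from 62.1 ± 0.622 to 39.7 ± 3.02 CPM (-0.64 ± 0.05). Cables1, an adaptor that binds CDKs (0.42 ± 0.10), and Cdk19, a Mediator kinase (0.17 ± 0.05), rose, and the transcription elongation kinase Cdk9 fell (-0.16 ± 0.05).

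**Figure D4:**
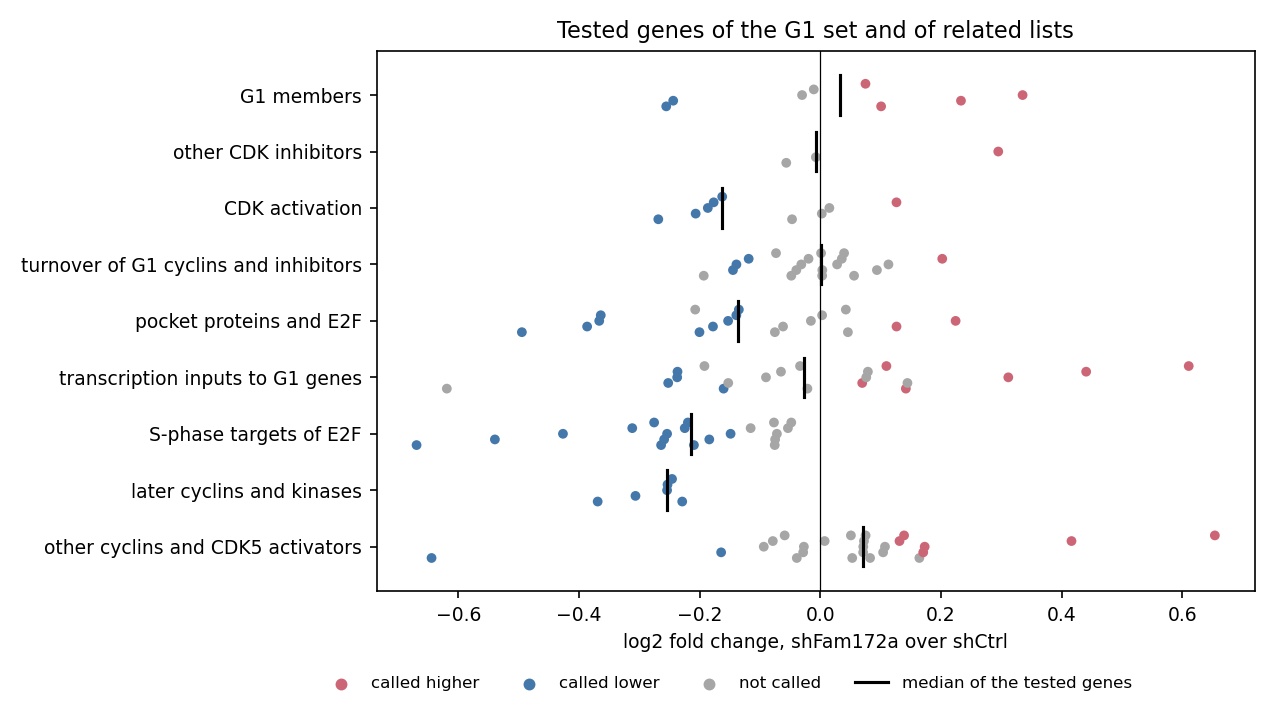
Log2 fold change (shFam172a over shCtrl) of every tested gene in the G1 set and in 8 related lists; red was called higher, blue lower and grey not called, and the black tick is the list's median. The G1 members lie on both sides of 0, the S-phase targets and the later cyclins and kinases lie under it, and Ccng2 (0.65) and Ccng1 (-0.64) are at the ends of the list of other cyclins.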

How the data were processed

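Per the submitters' processing notes, read pairs were aligned with HISAT2 2.0.5 to mm10 and HTSeq was used. The authors deposited raw counts per gene symbol, and neither the annotation nor the strand setting is given in the sources used here. Its 5 rows that name no gene stayed out of library sizes and tests, and the largest of them, pairs in no gene, held 16.4% to 17.9% of all pairs.

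After filterByExpr by group and TMM scaling, edgeR 4.0.16 tested each gene (robust glmQLFit, glmQLFTest, glmTreat against 1.2-fold) in R 4.3.3, two-sided, with group as the sole term and Benjamini-Hochberg adjustment over 12820 genes at 0.05. Gene models were GENCODE on GRCm38, and start windows came from RefSeq. The procedure was tested on simulated data.

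Named genes are all members, Fam172a, all other CDK inhibitors, Ccna2, Ccnb1, Cdk1, Mki67 and, from each list, up to 3 called genes per direction with the smallest adjusted p and a mean of at least 2 CPM, or every called one where 5 or fewer were; some items are not reported here. Cd68 and the genes at 0 were named after their values were seen. The members and lists were chosen with earlier results of these data known. The 17 alternatives included DESeq2 1.42.0, limma-voom (limma 3.58.1), other scalings and filters, thinning, a length and GC offset, a replicate block and the omission of each library.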

Additional observations from a re-analysis of the deposited data

How the results depend on the processing

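Ccnd3, Ccne1, Cdk2 and Cdkn1a were called in the same direction in all 17 alternatives, and 0 of 17 called Ccnd1 or Ccne2. The number of members called higher, 4, was 2 without shCtrl replicate 1, where the calls of Cdk4 and Cdkn1b ended, and 3 without each of the other libraries. The number called lower was 2 in every alternative. Over all genes, leaving out a library gave 1804 to 2091 higher and 1877 to 2228 lower, DESeq2 1725 and 1836, and limma-voom 2173 and 2371. The labels do not say whether the replicate numbers pair the samples. The deviations of same-numbered libraries correlated at -0.00964 to -0.00376, which shows no shared effect across genes but cannot decide on single genes. Cdkn1a fell in replicate order in both groups (83.5, 79.3 and 74.7 CPM in shCtrl, 108, 97.8 and 93.8 CPM in shFam172a). A block for the replicate number lowered the SE of Cdkn1a from 0.0479 to 0.0430. It left that of Ccne2 nearly level and raised those of Ccnd1, Ccnd3, Ccne1, Cdk2, Cdk4 and Cdkn1b. A shared effect on Cdkn1a was not tested. With the replicate number as a block, 3 members were higher and 2 lower (Cdk4: 0.07, edgeR adjusted p = 0.0665), and 2150 and 2318 of all genes. CPM per kb depends on the length chosen, by up to 2.27-fold for Ccnd3. Depth sets the limit for Ccnd2 and Cdk6. Opposite-strand overlap could not be resolved for Ccnd1, Ccnd3, Ccne2, Cdk4 and Cdkn1a.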
